A study of Homo sapiens with 6 samples.

Results

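The nuclear receptor genes were taken as 41 named members of the family, each read from the array feature that the platform annotation pairs with that gene symbol alone, and from the brightest such feature where a gene had several. Of the 41, 34 were measured in this way, among 16704 genes in all. NR1H2, NR1H4, NR1I2, RARA, NR2F2, HNF4A and NR0B1 were not analysed here. The cells were LNCaP, an androgen-responsive human prostate cancer line, stably transfected with the siLentGene-2 vector and selected by neomycin resistance. In 3 clones the vector expressed a short hairpin targeting MBD2, which reads methylated CpG sites and brings the NuRD complex of repressors to them. In the 3 control clones it expressed a scrambled hairpin. Cytoplasmic RNA of each clone went on 1 Affymetrix human Gene ST array, so a replicate is a clone and not a repeat culture of a clone. The design holds the single comparison of MBD2 knockdown with scrambled control. Nothing in the labels says that the clones of a group came from separate transfections, so p-values measure the spread between these 6 samples.

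Nuclear receptors are transcription factors with a DNA-binding domain of zinc fingers and a pocket that binds small fat-soluble ligands, such as steroids, thyroid hormone, vitamin D, retinoic acid, oxysterols, bile acids and fatty acids. With ligand they recruit coactivators, and without it several of them recruit corepressors with histone deacetylases. Orphan members have no established hormone, and NR0B2 lacks the DNA-binding domain and acts by binding other receptors. In prostate epithelium the family is best known for the androgen receptor, which is not among these members. Many receptor genes start in CpG islands, and CpG dinucleotides are the sites that MBD2 reads when they are methylated.

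The start sites of the receptors with an unadjusted p under 0.05 are shown for their CpG content, except NR2F6, which had no window. Windows of 300 bases, from 250 before to 50 after a transcription start, came from RefSeq in build GRCh38.p14 and covered 29 of the 34 measured members. Of a gene with several starts the window with the most CpGs is printed, and for NR5A2 both of its windows are printed, since 1 of them has no CpG. CpG dinucleotides are in capitals.
NR6A1, chr9:124771262-124771561, minus strand: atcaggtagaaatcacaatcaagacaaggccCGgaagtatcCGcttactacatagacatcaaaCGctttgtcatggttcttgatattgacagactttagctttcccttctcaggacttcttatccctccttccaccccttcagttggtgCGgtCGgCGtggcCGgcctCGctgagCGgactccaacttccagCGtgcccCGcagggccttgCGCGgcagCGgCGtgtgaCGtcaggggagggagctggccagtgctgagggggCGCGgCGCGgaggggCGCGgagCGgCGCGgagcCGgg
NR5A2, chr1:200042341-200042640, plus strand: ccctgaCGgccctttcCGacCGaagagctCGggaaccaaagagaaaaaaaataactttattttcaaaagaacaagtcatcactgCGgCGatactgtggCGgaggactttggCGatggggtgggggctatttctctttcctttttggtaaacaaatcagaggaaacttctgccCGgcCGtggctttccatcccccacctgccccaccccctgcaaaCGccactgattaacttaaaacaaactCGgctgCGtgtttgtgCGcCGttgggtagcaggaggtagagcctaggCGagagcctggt
PPARD, chr6:35342308-35342607, plus strand: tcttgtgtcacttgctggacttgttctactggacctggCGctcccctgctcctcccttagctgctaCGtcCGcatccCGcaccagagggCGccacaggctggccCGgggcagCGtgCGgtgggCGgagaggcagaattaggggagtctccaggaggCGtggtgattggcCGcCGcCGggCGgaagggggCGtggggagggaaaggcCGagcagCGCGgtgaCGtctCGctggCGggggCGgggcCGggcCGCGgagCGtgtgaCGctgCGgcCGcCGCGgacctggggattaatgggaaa
THRB, chr3:24494801-24495100, minus strand: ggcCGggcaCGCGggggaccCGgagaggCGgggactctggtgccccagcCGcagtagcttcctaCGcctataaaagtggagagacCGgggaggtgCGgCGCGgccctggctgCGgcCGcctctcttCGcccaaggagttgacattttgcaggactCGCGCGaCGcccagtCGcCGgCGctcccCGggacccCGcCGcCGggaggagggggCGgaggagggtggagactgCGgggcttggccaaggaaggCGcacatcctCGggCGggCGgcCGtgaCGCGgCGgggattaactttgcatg
NR1H3, chr11:47248645-47248944, plus strand: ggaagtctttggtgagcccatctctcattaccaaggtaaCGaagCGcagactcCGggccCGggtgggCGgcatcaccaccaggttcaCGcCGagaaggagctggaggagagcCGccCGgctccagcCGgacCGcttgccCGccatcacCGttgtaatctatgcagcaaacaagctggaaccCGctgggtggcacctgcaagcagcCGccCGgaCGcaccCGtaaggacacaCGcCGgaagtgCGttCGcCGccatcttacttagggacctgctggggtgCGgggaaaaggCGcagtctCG
The start of NR5A2 that lies further upstream has no CpG. Capitals there mark its single copy of AGGTCA, the core motif that most nuclear receptors bind, 84 bases before the start.
NR5A2, chr1:200027460-200027759, plus strand: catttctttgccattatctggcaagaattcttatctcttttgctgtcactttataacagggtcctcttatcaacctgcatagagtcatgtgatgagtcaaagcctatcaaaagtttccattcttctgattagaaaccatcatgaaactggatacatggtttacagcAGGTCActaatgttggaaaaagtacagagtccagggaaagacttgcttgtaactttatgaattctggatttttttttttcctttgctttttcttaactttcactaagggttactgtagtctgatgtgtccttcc
The windows of NR6A1 and NR1H3 hold 26 CpGs each, that of PPARD 31, that of THRB 35 and the downstream one of NR5A2 16. Thus receptors with higher and with lower means in the knockdown clones both had CpG-rich starts. No methylation was measured in these samples.

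The arrays were alike in their middle and differed at the dim end. Array medians were 6.31 to 6.33 on the log2 scale, while the lower quartile was 4.81 in knockdown clone 1 against 4.68 to 4.72 in the others. Knockdown clones 2 and 3 resembled each other more than any other pair did, with an SD of their difference over genes of 0.185 against 0.223 to 0.35 for the other pairs. MBD2 stood at 8.73, 9.25 and 9.20 in control clones 1, 2 and 3 and at 7.68, 7.84 and 7.81 in knockdown clones 1, 2 and 3, with a log2 fold change of -1.28 (SE 0.14, limma adjusted p = 0.111; exact two-sided permutation p = 0.1, the smallest that 3 against 3 allows). The 9 measured luminal prostate markers, KLK2, KLK3, KLK4, KRT8, KRT18, HOXB13, SLC45A3, STEAP2 and ACP3, all had signals above the lower quartile of the arrays. Of the markers of other cell types, 5 of 9 for fibroblasts, 4 of 6 for leukocytes and 4 of 8 for hepatocytes were dim in both groups, with a mean below the lower quartile of each of the 6 arrays. So were 4 of 8 basal and mesenchymal markers and 23.5% of all genes. The rest were not dim, among them LCP1 (control mean 10.41), VIM (9.28), FN1 (8.14), TTR (7.82) and COL1A1 (7.09).

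No nuclear receptor passed the threshold. Of the 34 members 0 had an adjusted p under 0.05 in limma's moderated test, as had 0% of all genes, and their smallest adjusted p was 0.229, for NR5A2. At an unadjusted p under 0.05 there were 6 members, or 17.6%, against 9.39% of all genes. The plain equal-variance test gave 4 members at that level, but the 9.39% is from limma and is no background for that count. NR6A1, NR5A2, PPARD and NR2F6 were on the higher side (4 members, against 3.93% of all genes), and THRB and NR1H3 on the lower side (2 members, against 5.45%). The 3 knockdown clones lay wholly above or below the 3 control clones in 5 members, or 14.7%, which is near the 15.4% of all genes. Of these 4 were higher (6.57% of all genes were) and 1 was lower (8.87%). The means were higher in 18 members (48.7% of all genes) and lower in 16 (51.3%), with a median log2 fold change of 0.034 beside -0.0044 over all genes. In 26 of 34 the difference was under 0.2 on the log2 scale (76.5%, against 81.2% of all genes), and in 0 did it reach 2-fold, which 0.377% of all genes did.

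**Figure D1:**
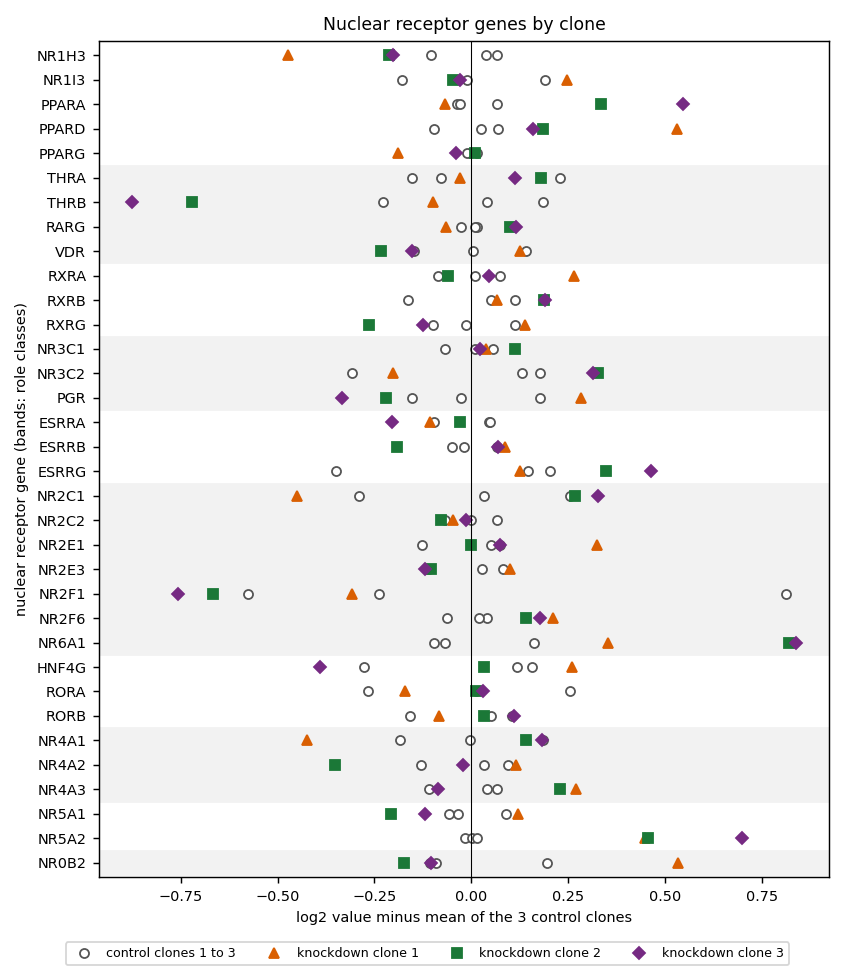
Log2 value of each of the 34 measured nuclear receptor genes (rows, banded by role class) minus the mean of the 3 control clones, with open circles for control clones and filled symbols for knockdown clones 1, 2 and 3. In 26 genes the group means differ by under 0.2, and NR6A1, NR5A2, THRB, NR2F1, PPARA, PPARD and NR0B2 each have a knockdown clone at least 0.5 away.

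NR6A1, also called germ cell nuclear factor, is an orphan receptor that represses pluripotency and germline genes. Its feature (8164087) read 5.62, 5.85 and 5.59 in control clones 1, 2 and 3 and 6.04, 6.51 and 6.52 in knockdown clones 1, 2 and 3. All 3 knockdown clones were above all controls, and clone 1 stood nearest to them. The log2 fold change was 0.67 (SE 0.15), or 1.59-fold, with a 95% confidence interval from 0.33 to 1.02 and an adjusted p of 0.272 in limma. Without knockdown clone 1 NR6A1 passed the threshold with 0.83 (adjusted p = 0.0498), in a fit that rests on the alike clones 2 and 3, and with both averaged as 1 replicate beside clone 1 it did not (adjusted p = 0.64). Its neighbour in the genome, NR5A1, the regulator of steroid hormone synthesis in adrenal and gonad, had a log2 fold change of -0.07. NR5A1 was dim in both groups, which limits what its value shows. The 6 nearest measured genes, NR5A1 among them, had between -0.15 and 0.10, so a shift like that of NR6A1 was not seen in their signals.

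NR5A2, a receptor of liver, gut and pancreas that drives genes of bile acid and steroid synthesis, read 4.12, 4.14 and 4.15 in control clones 1, 2 and 3. In knockdown clones 1, 2 and 3 it read 4.59, 4.60 and 4.84. The controls were nearly identical (SD 0.015, lower than in all but 2.1% of genes), and every knockdown clone lay above them. The log2 fold change was 0.53 (SE 0.09), or 1.45-fold, with a 95% interval from 0.32 to 0.75 and a limma adjusted p of 0.229. The feature was dim, with its mean below the lower quartile of all 6 arrays in both groups. Of its 6 nearest measured genes 5 had lower means, with a range from -0.37 to 0.04.

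**Figure D2:**
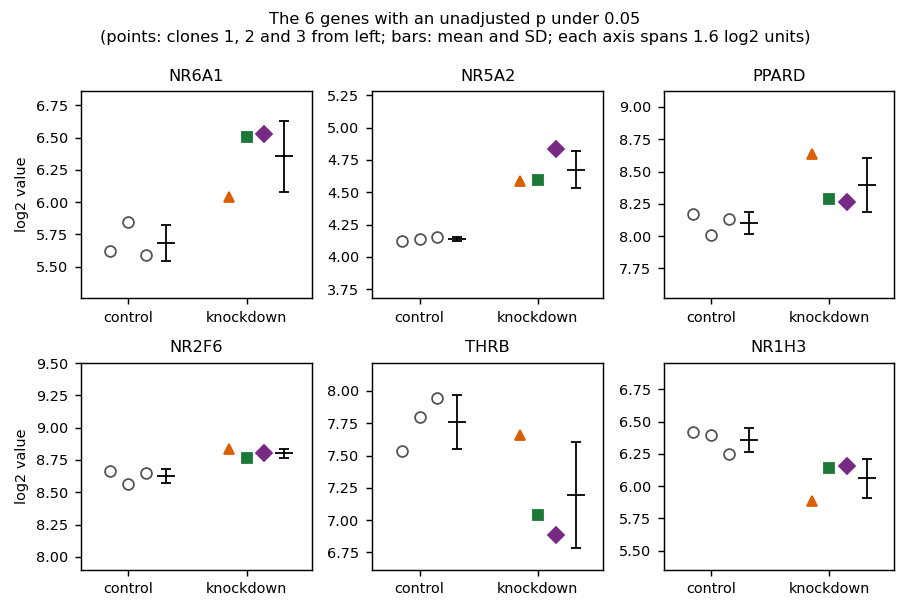
Log2 values of the 6 nuclear receptor genes with an unadjusted p under 0.05, with open circles for control clones 1, 2 and 3 and filled symbols for knockdown clones 1, 2 and 3 from left to right, and mean and SD beside each group. NR6A1, NR5A2, PPARD and NR2F6 are higher and NR1H3 lower in all 3 knockdown clones, while THRB is low in knockdown clones 2 and 3 only.

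Lipid sensors had values on both sides. PPARD, a fatty acid receptor found in most tissues, read 8.17, 8.01 and 8.13 in control clones 1, 2 and 3 and 8.63, 8.29 and 8.26 in knockdown clones 1, 2 and 3. The groups did not overlap and clone 1 was highest, with a log2 fold change of 0.29 (SE 0.12, limma adjusted p = 0.504) that was 0.17 without knockdown clone 1. NR1H3, the oxysterol receptor LXR alpha, read 6.42, 6.39 and 6.25 in the control clones and 5.88, 6.14 and 6.16 in knockdown clones 1, 2 and 3. All knockdown clones were below all controls, and clone 1 was lowest, with a log2 fold change of -0.30 (SE 0.10, limma adjusted p = 0.435). PPARA, the receptor behind fatty acid oxidation in liver, read 5.64, 5.65 and 5.75 in the controls and 5.61, 6.02 and 6.23 in knockdown clones 1, 2 and 3, so clone 1 lay with the controls and the groups overlapped (log2 fold change 0.27, limma adjusted p = 0.641). PPARG, the receptor of fat cell formation, had -0.07 and NR1I3, the xenobiotic receptor CAR, 0.06.

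Among vitamin and hormone receptors the largest difference was that of THRB, the beta receptor for thyroid hormone. It read 7.53, 7.80 and 7.95 in control clones 1, 2 and 3 and 7.66, 7.04 and 6.89 in knockdown clones 1, 2 and 3. Clones 2 and 3 were below every control, whereas clone 1 lay among the controls, so the groups overlapped. The log2 fold change was -0.57 (SE 0.21) with a 95% interval from -1.05 to -0.08 and a limma adjusted p of 0.463, and it was -0.80 without knockdown clone 1 (adjusted p = 0.066) and -0.41 without knockdown clone 3. All 6 nearest measured genes on either side of THRB had lower means too, between -0.30 and -0.17. Their median against the control mean was -0.40 in knockdown clone 1, where THRB itself lay among the controls, -0.11 in clone 2 and -0.12 in clone 3. The alpha receptor THRA had 0.09, with 7.82 ± 0.20 for control and 7.91 ± 0.11 for knockdown clones (mean ± SD, n = 3 each). RARG, a retinoic acid receptor, had 0.05 and VDR, the vitamin D receptor, -0.09, and both groups overlapped in each.

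The retinoid X receptors, which pair with most of the receptors above, had 0.08 for RXRA, 0.15 for RXRB and -0.08 for RXRG. The 3 features of RXRB gave 0.13, 0.15 and 0.16, so they had the same sign. RXRG was dim in both groups, with 3.48 ± 0.11 and 3.39 ± 0.20 (control and knockdown mean ± SD, n = 3 each). For each of the 3 genes the groups overlapped.

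The steroid receptors gave no shift beyond the spread between clones. NR3C1, the glucocorticoid receptor, was dim in every clone, at 3.08, 3.16 and 3.20 in the controls and 3.19, 3.26 and 3.17 in knockdown clones 1, 2 and 3, with a log2 fold change of 0.06. NR3C2, the mineralocorticoid receptor, had means of 7.48 ± 0.27 for control and 7.62 ± 0.30 for knockdown. PGR, the progesterone receptor, read 3.69 ± 0.17 and 3.60 ± 0.33, again under the lower quartile of every array. The estrogen-related receptors, orphans that drive mitochondrial genes, had -0.11 for ESRRA, -0.01 for ESRRB and 0.31 for ESRRG. ESRRG was dim and read 4.18, 4.24 and 3.69 in the controls and 4.16, 4.39 and 4.50 in knockdown clones 1, 2 and 3, with overlap.

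The largest spread within the controls belonged to NR2F1, the COUP factor that directs neuronal and mesenchymal development and marks dormant tumour cells. It read 7.45, 6.40 and 6.06 in control clones 1, 2 and 3 and 6.33, 5.97 and 5.88 in knockdown clones 1, 2 and 3. Control clone 1 stood above every other clone, and the other controls lay close to the knockdown clones. Its SD in the controls, 0.725, exceeded that of 99.5% of genes, and the log2 fold change of -0.58 had a 95% interval from -1.35 to 0.19 (limma adjusted p = 0.646). NR2F6, a related orphan repressor, read 8.67, 8.56 and 8.65 in the controls and 8.84, 8.77 and 8.80 in knockdown clones 1, 2 and 3, a log2 fold change of 0.18 (SE 0.07, limma adjusted p = 0.529) without overlap. The testicular receptors NR2C1 and NR2C2, repressors that compete for retinoid receptor sites, had 0.05 and -0.05. NR2C1 split the clones within groups, with 6.29 in control clone 1 and 6.13 in knockdown clone 1 against 6.61 to 6.91 in the others. The eye and brain orphans NR2E1 and NR2E3 had 0.13 and -0.04.

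The remaining members were close to their control level. The NR4A receptors, orphans induced within minutes of many signals, had -0.03 for NR4A1, -0.09 for NR4A2 and 0.14 for NR4A3. NR4A1 read 6.81 in knockdown clone 1, below the controls at 7.05 to 7.42, while clones 2 (7.38) and 3 (7.42) lay at the upper end of that range. HNF4G, a receptor of gut epithelium, had -0.03. The clock-linked receptors RORA and RORB had -0.04 and 0.02. NR0B2, the bile acid-induced repressor, read 4.92, 4.63 and 4.61 in the controls and 5.26, 4.55 and 4.62 in knockdown clones 1, 2 and 3, so clone 1 alone was above the controls. The 28 members outside the 6 with an unadjusted p under 0.05 had limma adjusted p-values from 0.619 to 0.984.

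**Figure D3:**
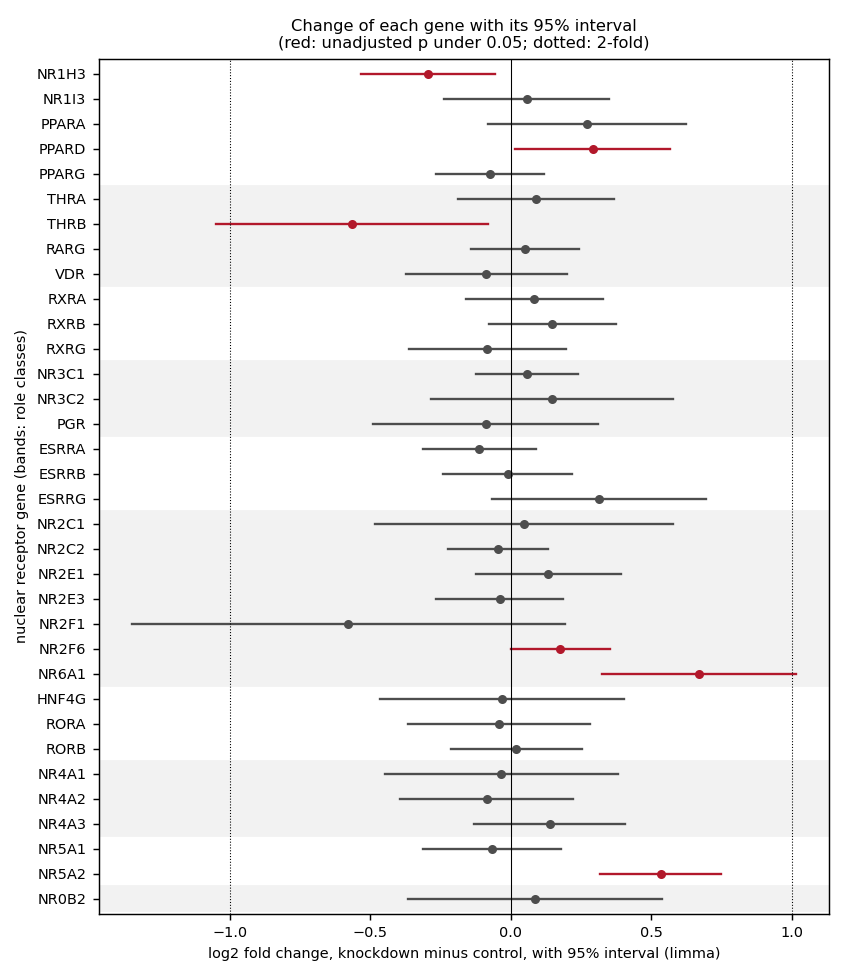
Log2 fold change of the 34 nuclear receptor genes, knockdown minus control, as points with 95% intervals from the limma fit, in red where the unadjusted p is under 0.05, with dotted lines at a 2-fold difference. The intervals of THRB, NR2F1 and NR6A1 reach past a 2-fold difference and those of the other 31 genes do not.

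The precision of 3 clones a group set what could be seen. For 31 of 34 members (91.2%, against 97.4% of all genes) the 95% interval lay within a 2-fold difference either way, THRB, NR2F1 and NR6A1 being the exceptions. For 23 members it lay within 0.5 on the log2 scale. Dim signals were common in the family: 13 members (38.2%) had means below the lower quartile of all 6 arrays in both groups, against 23.5% of all genes. These were NR1I3, RXRG, NR3C1, PGR, ESRRB, ESRRG, NR2E1, RORA, RORB, NR4A2, NR4A3, NR5A1 and NR5A2, and for them a small interval says little about the transcript itself. Between clones the members varied somewhat more than genes at large, with a median SD of 0.113 for control and 0.17 for knockdown clones, against 0.10 and 0.13.

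The clones differed in which receptors lay at least 0.5 from the control mean. In knockdown clone 1 these were PPARD (0.53) and NR0B2 (0.54), or 5.88% of members against 5.67% of all genes. In clone 2 they were THRB (-0.72), NR2F1 (-0.67) and NR6A1 (0.82), or 8.82% against 3.33%. In clone 3 they were THRB (-0.88), NR2F1 (-0.76), NR6A1 (0.84), NR5A2 (0.70) and PPARA (0.55), or 14.7% against 5.80%. Clones 2 and 3 thus shared THRB, NR2F1 and NR6A1. Control clones 1 and 3 each had 1 member that far from the control mean (2.94%, against 1.09% and 0.946% of all genes), NR2F1 in both. The control clones themselves form that mean, which draws them nearer to it than the knockdown clones. Against control clones 2 and 3 alone, without the high control clone 1, NR2F1 lay at -0.26 in knockdown clone 2 and -0.35 in clone 3. Over all members the median distance from the control mean was 0.09 for knockdown clone 1, 0.01 for clone 2 and 0.03 for clone 3, beside 0.03, -0.02 and -0.03 over all genes.

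Starts in CpG-rich sequence were as frequent in the family as in genes at large. A window was called CpG-rich when its observed over expected CpG ratio was at least 0.6 and its GC content at least 50%. By the window with the most CpGs, 21 of 29 members were CpG-rich (72.4%), as were 72.3% of the 13351 measured genes with a window. The CpG-rich members had a median log2 fold change of 0.08, with 14 higher and 7 lower, and the other 8 had -0.04, with 2 higher and 6 lower. Over all genes the medians ran the other way, at -0.03 for CpG-rich and 0.03 for other starts. Across the 29 members the CpG count and the log2 fold change had a Pearson correlation of 0.139 and a Spearman correlation of 0.275, as a description over genes that share the same 6 arrays, and over all genes these were -0.107 and -0.124.

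**Figure D4:**
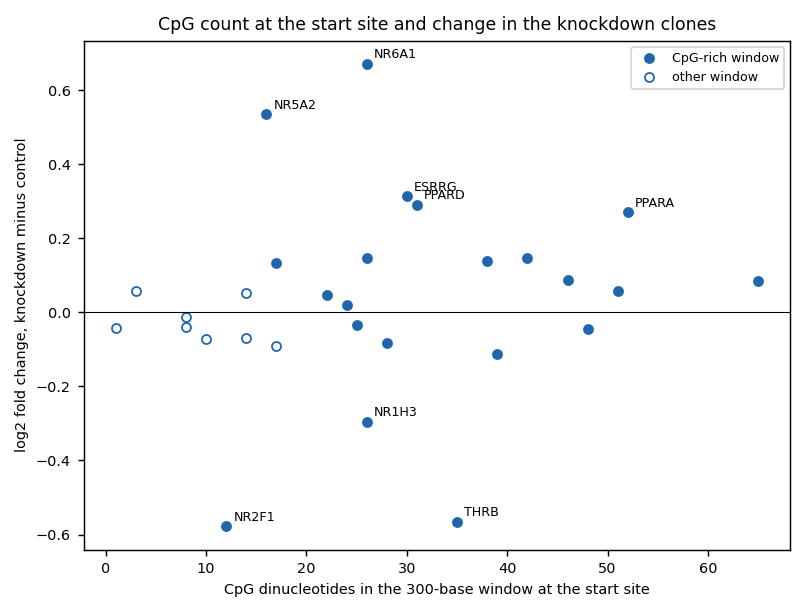
CpG dinucleotides in the 300-base window at the start site (horizontal, the window with the most CpGs of each gene) against the log2 fold change, knockdown minus control, of 29 nuclear receptor genes, with filled points for CpG-rich windows. NR6A1, NR5A2, THRB, NR1H3 and NR2F1 all have CpG-rich windows and lie on both sides of 0.

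Receptor binding motifs were searched in the same windows on both strands. AGGTCA was present in 9 of 66 windows of the members (13.6%), in ESRRG, NR1H3, NR2E1, NR5A2, PPARG and RXRG, against 11.4% of 19104 windows of all measured genes. Longer motifs built on AGGTCA, which overlap with it, were searched too. AGGTCA directly preceded by TCA, the site of NR5A and estrogen-related receptors, was in 0 of the 66 windows and in 0.225% of all. Direct repeats of AGGTCA with 0, 1 or 4 bases between the copies were in 0 of the 66, and in 0.0105%, 0.0262% and 0.0105% of all. The steroid receptor palindrome, AGAACA and TGTTCT with 3 bases between them, was in 0 of the 66 and 0 of the 19104.

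Genes that work with the receptors or lie downstream of them were read from 17 textbook lists, with 209 distinct genes measured, and markers of cell types from 5 more, with 40. Of the 209 genes 0 passed the threshold, and 19 had an unadjusted p under 0.05 (9.09%, near the 9.39% of all genes), 8 higher and 11 lower. Among 16 coactivators, which open chromatin for liganded receptors, 10 had lower means, with a median of -0.04, and 3 had an unadjusted p under 0.05. NCOA1, a p160 coactivator of steroid receptors, read 8.95, 8.68 and 9.15 in the controls and 8.61, 8.28 and 8.13 in knockdown clones 1, 2 and 3, with a log2 fold change of -0.59 (SE 0.16, limma adjusted p = 0.338). KAT2B, a histone acetyltransferase, had -0.43, against -0.255 without knockdown clone 1 and -0.261 with array weights, where arrays that deviate more from the fit count less. Every knockdown clone lay below every control in both genes. Of 10 corepressors 6 had higher means, with a median of 0.06, while TBL1X and LCOR, the members with the smallest p, both had -0.25. Of 12 chaperones that hold steroid receptors ready for hormone, 9 had lower means with a median of -0.05, with 0.23 for DNAJB1 and -0.16 for PTGES3.

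The thyroid hormone axis held the list gene with the smallest adjusted p beside THRB. ME1, malic enzyme, a target of thyroid hormone in liver, read 10.43, 10.36 and 10.34 in the controls and 9.86, 9.79 and 9.47 in knockdown clones 1, 2 and 3, a log2 fold change of -0.67 (SE 0.11, limma adjusted p = 0.229). DIO1, the deiodinase that activates thyroid hormone and is itself a target, read 6.70, 7.08 and 6.73 in the controls and 7.14, 7.88 and 8.14 in knockdown clones 1, 2 and 3, with 0.88 (SE 0.25, limma adjusted p = 0.347). These targets lay on opposite sides, and the 10 measured genes of the list had a median of -0.02 with 4 higher and 6 lower. Of the 10 genes 3 were dim in both groups. In the limma fit without knockdown clone 1, which rests on the alike clones 2 and 3, DIO1 passed (adjusted p = 0.0498) and ME1 did not (adjusted p = 0.0509). These values lie on either side of the threshold but are nearly the same.

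Steroid response genes were split as well. Of 13 genes induced by glucocorticoids and related steroids 9 had lower means, with a median of -0.12, and CEBPD had -0.22. TSC22D3, a leucine zipper protein induced by glucocorticoids and androgens, went the other way with 6.90, 8.03 and 7.09 in the controls and 8.62, 8.40 and 8.29 in knockdown clones 1, 2 and 3 (log2 fold change 1.10, SE 0.27, limma adjusted p = 0.315). All its knockdown values were above the controls, of which clone 2 was highest. The list median was -0.11 for knockdown clone 1 and -0.08 for both others, against -0.03 to -0.01 for the controls.

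Targets of the lipid sensors lay near 0. The 12 LXR targets had a median of 0.05 with 7 higher, and the exporter ABCA1 and the phospholipid enzyme LPCAT3 had 0.17 and 0.24 (for LPCAT3, 0.127 without control clone 1), beside a lower NR1H3 mean. The 17 PPAR targets had a median of 0.01 with 10 higher, and FABP3, a fatty acid carrier, had 0.29 and ACADVL, of mitochondrial fatty acid oxidation, 0.17. The 9 drug-handling targets of NR1I2 and NR1I3 had 0.02 with 5 higher, with 0.49 for GSTA2, which has near-identical family members, and 0.21 for CYP2B6. With array weights GSTA2 had 0.17. Of these 9 genes 6 were dim in both groups, as were 7 of the 17 PPAR targets and 3 of the 12 LXR targets. ABCA1, FABP3 and CYP2B6 were among the dim genes, for which a value near 0 says little about the transcript.

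Liver-type targets of HNF4 had higher means in 12 of 13 genes, with a median of 0.14, and 1 of the 13 had an unadjusted p under 0.05. That gene was ALB, albumin, which read 5.01, 7.46 and 5.67 in the controls and 8.73, 6.63 and 7.72 in knockdown clones 1, 2 and 3, with overlap and a log2 fold change of 1.64 (SE 0.70, limma adjusted p = 0.529), which was 0.677 with array weights. SERPINA1, a protease inhibitor made by liver, had 0.54, and 0.328 without knockdown clone 3. By clone the median of the list was 0.27 in knockdown clone 1 and 0.03 in both clones 2 and 3. Of these 13 genes 4 were under the lower quartile of every array, and knockdown clone 1 had the highest lower quartile of all arrays (4.81), whose part in the result was not tested. Hepatocyte markers, 6 of which are also in the HNF4 list, had a median of 0.20 with 7 of 8 higher and 3 at an unadjusted p under 0.05 (37.5%, against 9.39% of all genes). Their median was 0.29 for knockdown clone 1, -0.00018 for clone 2 and 0.20 for clone 3. Besides ALB, those 3 were FGA with 0.23 and FGB with -0.31, on opposite sides. Both were dim in both groups, with control and knockdown means of 3.23 and 3.46 for FGA and 3.42 and 3.11 for FGB. The 11 bile acid genes had a median of 0.04 with 8 higher, and the transporters SLC51A and SLC10A1 had 0.24 each, which were 0.14 and 0.133 without knockdown clone 1. With array weights SLC51A had 0.115. CYP7A1, the rate-limiting enzyme of bile acid synthesis, is named after its values were seen: it read 3.91, 5.54 and 4.75 in the controls and 6.91, 4.88 and 5.61 in knockdown clones 1, 2 and 3, so clones 2 and 3 overlapped the controls. The 10 steroid synthesis targets of NR5A receptors had a median of -0.02 with 5 higher, with 0.16 for both HSD3B1 and INHA. Of these 10 genes 5 were dim in both groups, as were 4 of the 11 bile acid genes. HSD3B1 had 0.0896 with array weights and 0.106 without control clone 1, and INHA 0.0607 without knockdown clone 1 and 0.245 without clone 3.

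**Figure D5:**
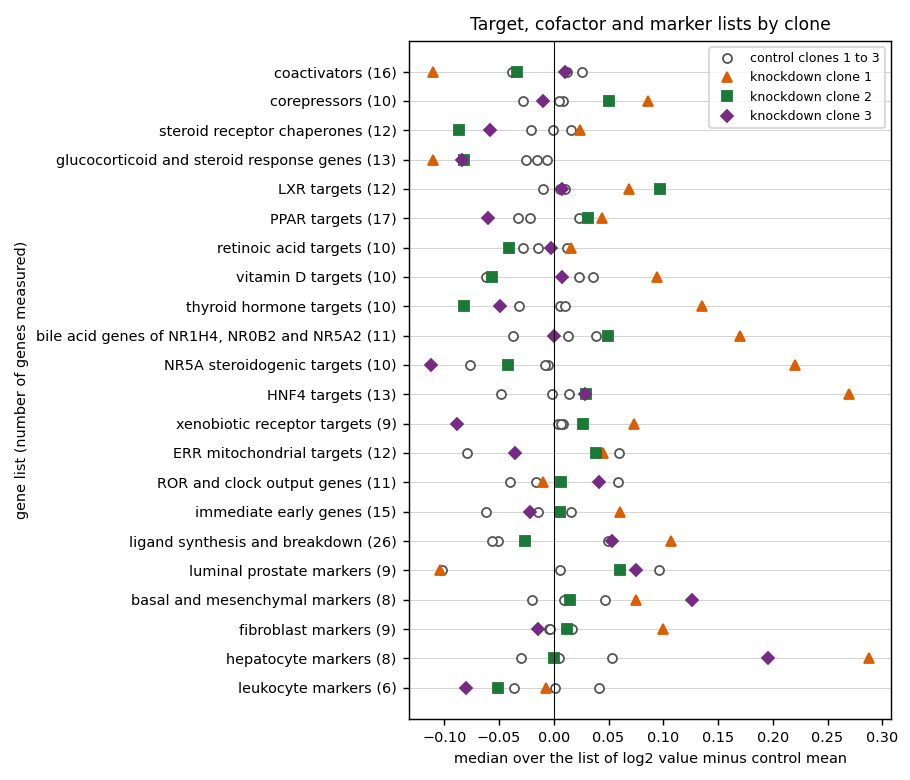
Median over each gene list (rows, number of measured genes in parentheses) of the log2 value minus the mean of the control clones, with open circles for control clones and filled symbols for knockdown clones 1, 2 and 3. In the HNF4 and NR5A steroidogenic lists knockdown clone 1 (0.27 and 0.22) stands above clones 2 and 3 (-0.11 to 0.03), and in the hepatocyte markers clones 1 (0.29) and 3 (0.20) stand above clone 2. Clone 1 is also highest of the knockdown clones in other lists, such as the bile acid genes (0.17) and thyroid hormone targets (0.135). In some lists it is lowest, such as the coactivators (-0.11).

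The other lists gave small medians. The 10 retinoic acid targets had a median of 0.0039 with 5 higher, with 0.42 for DHRS3, which turns retinal back into retinol (0.26 without knockdown clone 2), and -0.24 for the homeobox gene MEIS1. The 10 vitamin D targets had 0.05 with 6 higher, with 0.16 for both TRPV5 and SPP1. Of these 10 genes 5 were dim in both groups, SPP1 among them. SPP1 had 0.0392 without knockdown clone 3, 0.106 without control clone 1 and 0.107 with array weights. The 12 mitochondrial targets of estrogen-related receptors had -0.0033 with 6 higher, and IDH3A and CS had -0.11 and -0.08. IDH3A had -0.0448 without control clone 2, -0.0667 without knockdown clone 3 and -0.0589 under cyclic loess. CS had -0.0327 under cyclic loess, -0.148 with array weights, -0.143 without knockdown clone 1, -0.0351 without clone 2 and -0.0462 with clones 2 and 3 averaged. The 11 ROR and clock genes had 0.03 with 6 higher, with 0.54 for the clock output factor HLF and -0.27 for BMAL1, the clock activator that ROR receptors induce. The 15 immediate early genes had -0.0031 with 7 higher, and KLF6 and KLF4 had -0.32 and -0.26. The 26 genes of ligand synthesis and breakdown had 0.05 with 16 higher, led by DIO1 and DHRS3. Of these 26 genes 10 were dim in both groups, as were 3 of the 10 retinoic acid targets.

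The remaining marker lists had small medians. The 9 luminal markers had a median of -0.03 with 4 higher. KRT18 and HOXB13, with the smallest p, had -0.17 and -0.26 (for HOXB13, -0.135 without knockdown clone 3). The 4 higher were KLK3 (0.71), KLK2 (0.19), KLK4 (0.14) and SLC45A3 (0.12). KLK3, with the largest difference of the list, read 8.67, 10.12 and 8.48 in the controls. In knockdown clones 1, 2 and 3 it read 8.66, 10.3 and 10.44, with overlap. The 8 basal and mesenchymal markers had 0.07 with 6 higher, with 0.34 for KRT15 and 0.17 for KRT5. Both of these were dim in both groups. VIM and FN1, which were not dim, had -0.33 and 0.11. The 9 fibroblast markers had 0.01 with 6 higher, and the 6 leukocyte markers -0.04 with 2 higher. The genes with the smallest p were COL1A1 (0.24) and PDGFRA (0.12, dim in both groups) for fibroblasts. For leukocytes they were LCP1 (-0.34) and CD68 (0.21), and none of these 4 passed the threshold. Without knockdown clone 1 PDGFRA had 0.0709, LCP1 -0.184 and CD68 0.106. CD68 turned to -0.0023 with array weights and had 0.125 without control clone 1 and 0.367 without knockdown clone 2.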

How the data were processed

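Per the labels' protocols, cytoplasmic RNA was extracted with Trizol and labelled with biotin. The deposited values are log2 signals of array features. The submitters' processing notes name RMA, oligo and limma, while versions, filters and build are not given. RMA and the range of the values are the basis for the log2 scale. No further normalization was applied.

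Of 19712 features 17334 had 1 gene symbol, which gave 16704 genes by the feature with the highest mean. Features of different genes were not compared as levels; a feature was called dim against the quartiles of each array. The comparison was fitted over all genes with limma 3.58.1 (lmFit, eBayes; R 4.3.3), with Benjamini-Hochberg adjustment over all genes and a threshold of 0.05. The script was tested on simulated data. Python 3.11.15 made the summaries.

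The members and lists were chosen with earlier results of these data known. Clone values are given for members with an unadjusted p under 0.05 or without overlap, and of each list the 2 genes with the smallest p are named. Clone values of other members, with CYP7A1 and KLK3, were chosen after their values were seen, as were the further list genes named. Alternatives were array centring, quantile and cyclic loess normalization, a filter on the 30% of genes with the lowest mean, a trended and robust eBayes, array weights, a replicate block, the mean of a gene's features, a plain equal-variance test, clones 2 and 3 averaged, and leaving out each clone.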

Additional observations from a re-analysis of the deposited data

How the results depend on the processing

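The 6 receptors with an unadjusted p under 0.05 kept their direction under all 16 alternatives in which they were tested (NR5A2 was removed as dim in 1 of them). They were picked for that p in these same arrays. For the 5 without overlap, leaving out, averaging or weighting clones cannot turn the sign, so the kept direction adds no support. Past the threshold were 3 members with array weights, NR6A1 (adjusted p = 0.0243), NR5A2 (0.0311) and THRB (0.0396), and 1 member, NR6A1, without knockdown clone 1, against 0 in the other alternatives. The weight of knockdown clone 1 was 0.252 there and that of clone 2 was 3.43. Array weights also gave 325 of all 16704 genes past the threshold and 3331 at an unadjusted p under 0.05, 9 of them members. MBD2 was at -1.27 there (limma adjusted p = 0.0138), and 2 list genes passed, DIO1 and ME1. The member median was -0.0037, and CD68 had -0.0023, the 1 reversal among 753 values of 48 named genes. Repeated quantile normalization and cyclic loess gave 1 gene past the threshold each. Over the fits that leave out a clone, MBD2 ran from -1.44 to -1.19, passing without control clone 1 or knockdown clone 1; genes past the threshold ran from 0 to 70 and genes at an unadjusted p under 0.05 from 1088 to 2671. There members past the threshold ran from 0 to 1, members at an unadjusted p under 0.05 from 2 to 6 (2 without control clone 2, 3 without control clone 1), the member median from 0.0076 to 0.0393 and list genes past the threshold from 0 to 1. With the replicate number as a block 0 members passed, as did 0 of all genes. At an unadjusted p under 0.05 there were 5 members, against 1576 of all 16704 genes. Same-numbered clones deviated from their group means with correlations of -0.025, -0.189 and 0.174, against -0.1655 to 0.218 for other pairs. With 3 clones a group such correlations cannot decide whether the numbers pair the clones. The cause of these changes was not tested. With 3 arrays a group the number of arrays limits the precision, and dim features limit what is seen of 13 members.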
